A study of Mus musculus with 8 samples.

Results

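The unfolded protein response and the integrated stress response were read through 32 genes in alveolar macrophages of the mouse, which live in the air spaces of the lung. The genes were taken by symbol from the deposited count table, and all 32 were among its 48709 genes. By role, 12 encode endoplasmic reticulum (ER) folding proteins, 5 act in ER-associated degradation or protein import, 3 are stress sensors, 4 are transcription factors and 8 are targets of ATF4 or of the amino acid response. Libraries from Batf2-/- cells (4, numbered 5 to 8 by table column) were set against libraries from WT C57BL/6J cells (4, numbered 1 to 4). Each library held cells pooled from 4 mice, so replicate error here is the variation from pool to pool. All cells, of both genotypes, received 10 ng/mL of interferon gamma over 4 h, followed over 6 h by a 20% share of culture supernatant from Klebsiella pneumoniae, a lung pathogen. No untreated cells were compared, so whether the treatment itself moved these genes cannot be read from these libraries.

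The ER folds secreted and membrane proteins, and unfolded protein in its lumen releases the chaperone BiP from 3 sensors, IRE1 (gene Ern1), PERK (gene Eif2ak3) and ATF6. IRE1 splices Xbp1 mRNA, ATF6 is cut to a transcription factor, and both raise chaperone and degradation genes. PERK and the other kinases of the integrated stress response phosphorylate eIF2, which lowers general translation and favours that of ATF4. ATF4 in turn raises genes of amino acid synthesis and, with CHOP (gene Ddit3), genes of prolonged stress. Macrophages that make large amounts of cytokine rely on ER folding, and IRE1 is known to act downstream of toll-like receptors in these cells.

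Promoters of several chaperone genes and of several ATF4 targets held different motifs, shown here as a difference in sequence and not in expression. Neither motif was present in every gene of its group, and each was also found outside it. RefSeq windows of GRCm38.p6, from 250 bases before to 50 bases after each annotated start, matched 29 of the 32 genes by symbol, with Atf6, Hyou1 and Manf not matched. The motifs searched, on both strands, were the ER stress element (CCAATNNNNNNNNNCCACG) and the C/EBP-ATF response element (TGATGNAA). They have no overlap with each other in these windows. Capitals mark the matches, and in Hspa5 also the core TGACGTG of the unfolded protein response element. Hspa5 (chr2:34771840-34772139, plus strand) encodes BiP, Hsp90b1 (chr10:86705395-86705694, minus strand) another luminal chaperone, Asns (chr6:7693160-7693459, minus strand) asparagine synthetase, Chac1 (chr2:119350992-119351291, plus strand) an enzyme that degrades glutathione and Trib3 (chr2:152344011-152344310, minus strand) a pseudokinase induced by stress.
Hspa5: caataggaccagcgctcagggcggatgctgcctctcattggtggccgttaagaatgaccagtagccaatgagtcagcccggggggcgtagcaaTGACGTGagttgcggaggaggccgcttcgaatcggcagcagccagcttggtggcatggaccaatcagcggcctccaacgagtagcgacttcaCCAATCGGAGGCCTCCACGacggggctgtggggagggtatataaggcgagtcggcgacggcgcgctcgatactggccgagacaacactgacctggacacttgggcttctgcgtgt
Hsp90b1: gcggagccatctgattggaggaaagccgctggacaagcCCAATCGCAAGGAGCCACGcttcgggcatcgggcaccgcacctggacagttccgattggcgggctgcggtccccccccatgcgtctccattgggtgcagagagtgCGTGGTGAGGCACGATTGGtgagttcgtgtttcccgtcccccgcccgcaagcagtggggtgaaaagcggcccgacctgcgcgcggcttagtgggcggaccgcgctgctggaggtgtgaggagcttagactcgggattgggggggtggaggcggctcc
Asns: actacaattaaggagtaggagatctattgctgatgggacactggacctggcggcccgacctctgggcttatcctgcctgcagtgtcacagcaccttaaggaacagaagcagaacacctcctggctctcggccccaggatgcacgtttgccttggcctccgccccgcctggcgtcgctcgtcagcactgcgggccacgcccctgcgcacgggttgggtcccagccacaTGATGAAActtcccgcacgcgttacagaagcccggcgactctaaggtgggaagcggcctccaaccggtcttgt
Chac1: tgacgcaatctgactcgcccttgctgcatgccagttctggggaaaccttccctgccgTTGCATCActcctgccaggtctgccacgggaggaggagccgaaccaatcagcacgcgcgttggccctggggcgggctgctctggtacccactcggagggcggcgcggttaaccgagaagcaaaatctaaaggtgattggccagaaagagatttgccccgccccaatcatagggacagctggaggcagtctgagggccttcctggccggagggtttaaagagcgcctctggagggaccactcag
Trib3: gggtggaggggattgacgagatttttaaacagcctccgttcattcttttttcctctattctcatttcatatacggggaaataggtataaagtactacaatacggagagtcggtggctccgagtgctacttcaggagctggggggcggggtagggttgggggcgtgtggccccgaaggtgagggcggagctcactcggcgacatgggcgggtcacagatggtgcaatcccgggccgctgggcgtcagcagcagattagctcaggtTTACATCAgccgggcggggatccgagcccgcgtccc

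The ER stress element was found in 7 of the 29 genes, of which 6 were among the 10 ER folding genes with a window and 0 among the 8 ATF4 targets. Across all 32851 RefSeq windows 0.119% held it. The Hsp90b1 window holds 2 matches, and besides Hspa5 and Hsp90b1 the matches are in Canx (chr11:50325800-50325818, minus strand), Creld2 (chr15:88819520-88819538, plus strand), Dnajc3 (chr14:118937827-118937845, plus strand), Pdia6 (chr12:17266491-17266509, plus strand) and Syvn1 (chr19:6046532-6046550, plus strand), printed here as matched.
Canx: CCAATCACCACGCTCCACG
Creld2: CGTGGCGAGCCTCAATTGG
Dnajc3: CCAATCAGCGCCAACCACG
Pdia6: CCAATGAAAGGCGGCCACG
Syvn1: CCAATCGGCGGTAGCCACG
The Creld2 match reads on the strand opposite to the gene. The C/EBP-ATF element was found in 5 of the 29 genes, 4 of them among the 8 ATF4 targets (Asns, Chac1, Trib3 and Vldlr) and 0 among the 10 ER folding genes, with the remaining match in Herpud1. This shorter motif was present in 3.97% of all windows, and in Trib3 it lies after the annotated start. The core TGACGTG, found only in Hspa5 among the 29, was present in 2.01% of all windows. A match is a description of the letters, and neither motif's presence was tested for a role in these cells.

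Depth was close between libraries, with total counts of 31730041 to 39888022. Batf2, the check of the genotype labels, was at 0 counts throughout the Batf2-/- libraries, against 138 to 189 counts per 1000000 (CPM, scaled by TMM for library composition) in the WT libraries. In a principal component analysis of log2 CPM the leading axis held 42.5% of the variance and rose with table column in both genotypes. It ran -34.9, -16.2, -1.85 and 28.9 over Batf2-/- libraries 5 to 8, and -16.7, -7.73, 4.72 and 43.9 over WT libraries 1 to 4. The widest step in each genotype came at library 8 (Batf2-/-) and library 4 (WT). The second axis, with 24.2% of the variance, separated the genotypes, at -27.5 to -10.7 in Batf2-/- and 10.7 to 24.3 in WT. Summed levels of 15 alveolar macrophage markers were 15975 to 20132 CPM in Batf2-/- libraries and 12712 to 15765 CPM in WT libraries. The 14 of them that were tested were mixed, with 9 estimates above and 5 below 0 and a median log2 fold change of 0.09. Of 10 markers of plasma and B cells, which have a large ER, Sdc1 and Prdm1 carried nearly all counts, and the lineage markers named here, Jchain, Mzb1, Cd79a, Cd79b, Ms4a1, Pou2af1 and Tnfrsf17 had 0 to 6 counts per library. Over those 10 genes the summed level was 40.9 to 58.5 CPM in Batf2-/- libraries and 24.7 to 36.0 CPM in WT libraries. Summed markers of T and NK cells, with Il7r the main source, were 115 to 167 CPM in Batf2-/- and 53.7 to 80.2 CPM in WT, those of neutrophils, with Ly6g, Mpo, Elane and Retnlg at 0, 28.9 to 49.8 CPM in Batf2-/- and 17.4 to 28.9 CPM in WT, and those of dendritic cells and monocytes, of which 2 had estimates above and 2 below 0, 70.5 to 185 CPM in Batf2-/- and 49.9 to 103 CPM in WT. Epithelial markers summed to 20.7 to 28.2 CPM in Batf2-/- and 19.5 to 24.8 CPM in WT, and stromal markers to 1.76 to 5.24 CPM in Batf2-/- and 1.26 to 2.12 CPM in WT. Of the 34 markers tested, 11 had groups that did not overlap, against 6.33% of all tested genes. Against 1.11% of all tested genes called, 3 of the 34 rose (Car4, Sdc1 and Il7r) and 1 fell. That 1 was the dendritic cell marker Clec9a, at 0.253 ± 0.0717 CPM in Batf2-/- and 2.45 ± 0.130 CPM in WT (SD, n = 4 each; log2 fold change -3.27, edgeR adjusted p = 0.00012). The part of these marker differences in the results was not tested. In bulk RNA, fewer cells of a type and less RNA per cell cannot be told apart.

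Per exon length, Hspa5, Phgdh and Canx were the most abundant of the stress genes, and the sensors, Chac1, Sesn2, Ddit3 and Trib3 were among the least. Levels between genes are given as TPM (counts per exon length, scaled to sum to 1000000 in a library), computed from the counts and the summed exon length of each gene, which covers the exons of all annotated isoforms and so understates genes with long rare isoforms. Hspa5 was highest of the 32, at 766 ± 84.3 TPM in Batf2-/- and 765 ± 96.8 TPM in WT (SD, n = 4 each). Phgdh, the entry enzyme of serine synthesis, followed at 422 ± 44.5 TPM in Batf2-/- and 373 ± 30.3 TPM in WT. Canx, the lectin chaperone calnexin, was at 346 ± 41.4 TPM in Batf2-/- and 364 ± 41.1 TPM in WT, and in WT it differed from Phgdh by less than their spread. Atf4 stood at 324 ± 27.4 TPM in Batf2-/- and 327 ± 18.3 TPM in WT, and ranked 484 of 11083 tested genes. It differed from Canx by less than the SD of Canx in either genotype, but in WT by more than its own SD.

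Ern1 was at 5.89 ± 1.73 TPM in Batf2-/- and 5.66 ± 1.87 TPM in WT, and Eif2ak3 at 5.80 ± 1.22 TPM in Batf2-/- and 5.94 ± 1.54 TPM in WT, so the 2 kinase sensors did not differ beyond their spread. Chac1, Sesn2, Ddit3, Atf6 and Trib3 lay next, with means over the 8 libraries of 9.67 to 16.1 TPM. Among ATF4 targets the amino acid enzymes Phgdh, Asns and Psat1 were thus at 77.3 TPM or more by the same mean. Chac1, Sesn2 and Trib3 were at 16.1 TPM or less, and Ppp1r15a lay between at 52.8 TPM. Vldlr, a lipoprotein receptor that PERK and ATF4 are known to raise, had 2, 0, 0 and 0 counts in Batf2-/- libraries 5 to 8 and 0, 1, 0 and 1 counts in WT libraries 1 to 4. That is at or under the floor of 3 counts in every library, so Vldlr did not pass the filter on low counts, and the other 31 genes were tested.

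**Figure D1:**
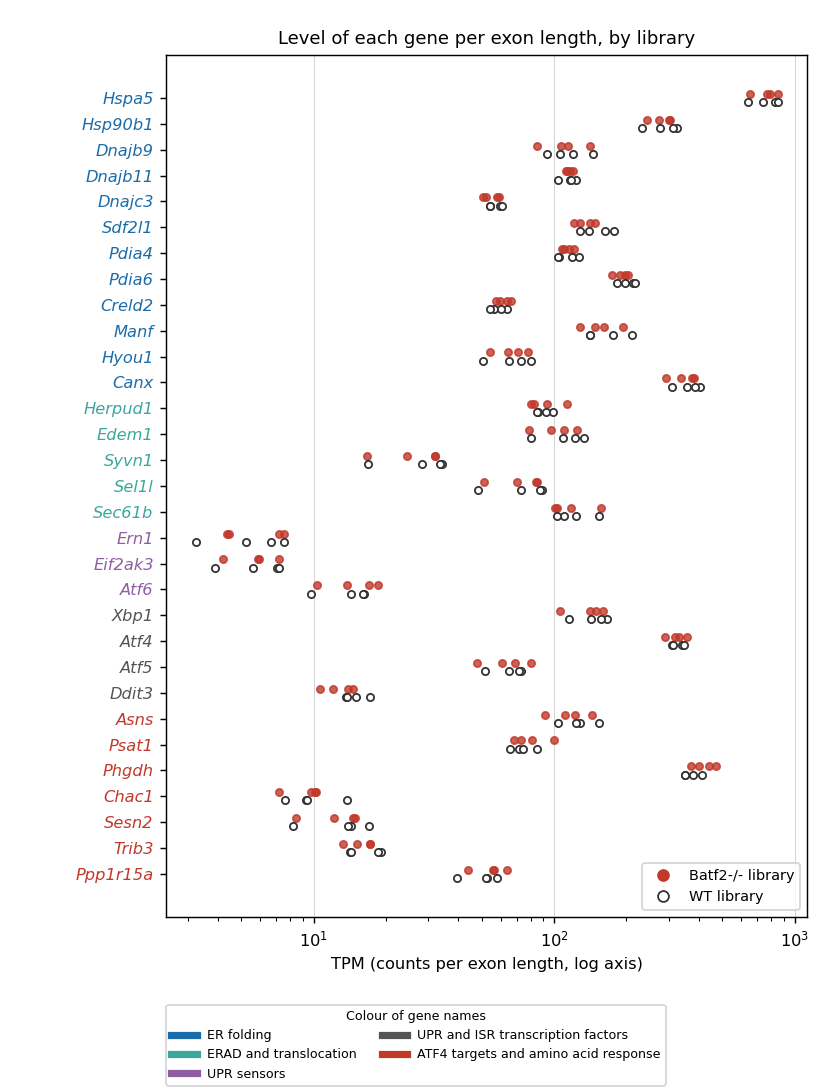
Level of each tested stress-response gene on a log axis of TPM, with filled points for the 4 Batf2-/- libraries above open points for the 4 WT libraries. Hspa5 lies highest and Ern1 and Eif2ak3 lowest, and the points of both genotypes overlap for every gene.

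Without a pairing of libraries, no gene of the set passed the test between genotypes, and the libraries of both genotypes overlapped for every tested gene. Of the 31 tested genes 0 passed an adjusted p of 0.05 by edgeR's quasi-likelihood test, against 1.11% of all 11083 tested genes, and 0 had an unadjusted p under 0.05, against 8.5% of all. DESeq2, limma-voom and limma-voom with library weights also called 0 of the 31. For 0 of the 31 genes the 4 Batf2-/- libraries lay all above or all below the 4 WT libraries, against 6.33% of all tested genes. The log2 fold changes of Batf2-/- over WT ran from -0.24 for Ddit3 to 0.16 for Phgdh, with a median of -0.04, against -0.01 over all tested genes. Estimates lay below 0 for 24 of the 31 genes, a description only, against 54.0% of all tested genes. A fit that pairs libraries by table column, which no label supports and which was added once the data were known, gave another count. In it Sdf2l1 (edgeR adjusted p = 0.0464) and Phgdh (edgeR adjusted p = 0.0448) passed, 2 of the 31 against 12.5% of all tested genes, and 9 of the 31 had an unadjusted p under 0.05, against 26.5% of all. For 20 of the 31, the 95% interval of the fold change lay within 0.5 log2 (1.41-fold) of no change, as it did for 45.6% of all tested genes. The other 11 were Dnajb9, Sdf2l1, Manf, Syvn1, Sec61b, Ern1, Ddit3, Psat1, Phgdh, Chac1 and Sesn2, whose intervals reached past that size in at least 1 direction.

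**Figure D2:**
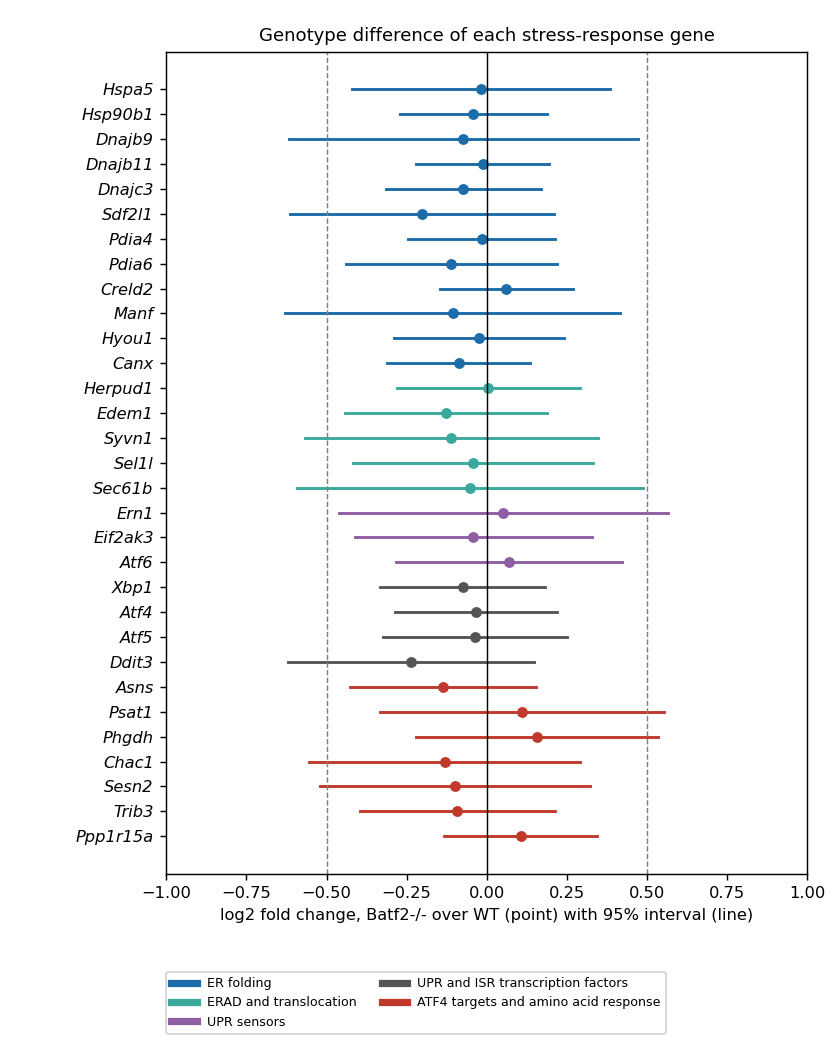
Log2 fold change of Batf2-/- over WT for each of the 31 tested genes (points) with its 95% interval (lines), coloured by role, with dashed lines at 0.5 log2 on either side of 0. Every interval includes 0, and 20 of the 31 stay between the dashed lines.

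Of the 12 ER folding genes, 0 rose, 0 fell and 12 did not pass, with a median log2 fold change of -0.06 and unadjusted p from 0.296 to 0.921. Hspa5, which encodes BiP, had 919, 1057, 1177 and 1387 CPM in Batf2-/- libraries 5 to 8, against 914, 1018, 1215 and 1451 CPM in WT libraries 1 to 4. The groups overlapped across nearly their whole range, and the log2 fold change was -0.02 with a 95% interval of -0.42 to 0.38 (edgeR adjusted p = 1.00). Hsp90b1 had 406, 398, 386 and 379 CPM in Batf2-/- libraries, against 376, 425, 437 and 378 CPM in WT libraries. Its log2 fold change of -0.04 had a narrower interval, -0.27 to 0.19 (edgeR adjusted p = 1.00). Canx had 598, 575, 552 and 528 CPM in Batf2-/- libraries, against 641, 588, 581 and 585 CPM in WT libraries. Library 5 lay above 3 of the 4 WT libraries and the other 3 Batf2-/- libraries below all of them, and the log2 fold change was -0.09 (interval -0.31 to 0.14, edgeR adjusted p = 1.00).

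The narrowest intervals in this role were those of Dnajb11 and Creld2. Dnajb11, a J-domain partner of BiP, had 123, 127, 132 and 139 CPM in Batf2-/- libraries, against 128, 130, 132 and 135 CPM in WT libraries, and its interval of -0.22 to 0.19 log2 was the narrowest of the 31. Creld2, induced by ER stress in mouse cells, averaged 29.3 ± 1.07 CPM in Batf2-/- and 28.1 ± 1.52 CPM in WT (SD, n = 4 each), the single positive estimate of this role at 0.06 log2. Pdia4 averaged 94.9 ± 3.57 CPM in Batf2-/- and 95.9 ± 9.03 CPM in WT. Hyou1, which exchanges nucleotide on BiP, averaged 167 ± 14.0 CPM in Batf2-/- and 169 ± 19.0 CPM in WT. Dnajc3, a J-domain protein known to restrain PERK, averaged 98.3 ± 8.18 CPM in Batf2-/- and 103 ± 8.14 CPM in WT.

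Sdf2l1, part of the complex of BiP with its J-domain partners, had the lowest estimate among the ER folding genes. It had 44.6, 46.2, 54.9 and 62.9 CPM in Batf2-/- libraries 5 to 8, against 47.9, 50.5, 62.2 and 79.4 CPM in WT libraries 1 to 4. The groups overlapped, with library 8 above 3 of the 4 WT libraries, and the log2 fold change was -0.20 (interval -0.61 to 0.21, edgeR adjusted p = 1.00). Manf, a secreted factor that binds BiP, had 150, 170, 199 and 263 CPM in Batf2-/- libraries, against 168, 162, 214 and 298 CPM in WT libraries. Its interval reached from -0.63 to 0.42 log2, and 146 of its exon bases overlap Dcaf1 on the opposite strand, a gene with 953 to 1407 counts per library. Dnajb9, a J-domain protein known to repress IRE1, had 72.3, 89.1, 102 and 138 CPM in Batf2-/- libraries, against 91.0, 77.1, 106 and 149 CPM in WT libraries. With a ratio of 2.06 between its highest and its lowest library, it varied most of the 31. Pdia6 averaged 249 ± 31.4 CPM in Batf2-/- and 269 ± 44.0 CPM in WT.

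In degradation and import, 0 of 5 genes rose or fell. Syvn1, the ubiquitin ligase HRD1, had 51.9, 50.7, 41.6 and 31.1 CPM in Batf2-/- libraries, against 56.0, 52.7, 47.5 and 33.1 CPM in WT libraries. The gene lies on chromosome 19, and its end at 6053712 is 87.3 kb before the start of Batf2 at 6140983 (GRCm38). Its log2 fold change was -0.11 (interval -0.57 to 0.35, edgeR adjusted p = 1.00). Of the exon bases of Syvn1, 91 overlap Mrpl49 on the opposite strand, a gene with 380 to 643 counts per library. Sel1l, the partner of that ligase, had 243, 235, 210 and 168 CPM in Batf2-/- libraries, against 257, 242, 216 and 167 CPM in WT libraries. Within each genotype the 2 partners were lowest in the same libraries, 8 and 4, as were 3580 of all 11083 tested genes. Edem1, which directs misfolded glycoproteins to degradation, averaged 229 ± 30.7 CPM in Batf2-/- and 250 ± 34.0 CPM in WT. Herpud1, a membrane component of the same machinery, averaged 74.8 ± 9.93 CPM in Batf2-/- and 74.5 ± 7.14 CPM in WT, with a log2 fold change of 0.00. Sec61b, a small subunit of the import channel, had 43.7, 42.0, 52.3 and 76.8 CPM in Batf2-/- libraries, against 47.2, 42.7, 54.3 and 78.5 CPM in WT libraries, so that libraries 8 and 4 were high and the others near each other.

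Of the 3 sensors, 0 rose or fell. Ern1 had 20.6, 19.2, 12.5 and 14.0 CPM in Batf2-/- libraries, against 20.8, 17.7, 14.8 and 10.7 CPM in WT libraries, a log2 fold change of 0.05 (interval -0.46 to 0.57, edgeR adjusted p = 1.00). Eif2ak3 averaged 12.1 ± 1.80 CPM in Batf2-/- and 12.4 ± 2.31 CPM in WT, and Atf6 averaged 47.5 ± 8.57 CPM in Batf2-/- and 45.2 ± 6.10 CPM in WT (SD, n = 4 each). Of the 4 transcription factors 0 rose or fell, and all 4 estimates were below 0. Xbp1 had 163, 169, 161 and 133 CPM in Batf2-/- libraries, against 182, 165, 161 and 151 CPM in WT libraries (log2 fold change -0.08, interval -0.33 to 0.18). Counts per gene do not separate spliced from unspliced Xbp1 mRNA, so IRE1 activity was not read here. Atf4 had 251, 254, 295 and 264 CPM in Batf2-/- libraries, against 271, 238, 282 and 297 CPM in WT libraries. Its log2 fold change was -0.03 (interval -0.29 to 0.22), and ATF4 is known to be set mainly by translation, which mRNA counts do not show.

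Ddit3, which encodes the transcription factor CHOP, had the lowest estimate and the smallest p of the 31 genes. It had 6.08, 6.71, 8.73 and 9.16 CPM in Batf2-/- libraries 5 to 8, against 7.93, 7.68, 10.2 and 10.3 CPM in WT libraries 1 to 4. Libraries 7 and 8 lay above libraries 1 and 2, so the groups overlapped, and the log2 fold change was -0.24 (interval -0.62 to 0.15, unadjusted p = 0.199, edgeR adjusted p = 0.955). These levels rest on 243 to 367 counts per library, and 68 exon bases of Ddit3 overlap Mars on the opposite strand, a gene with 2040 to 2567 counts per library. No source used here gives whether the counting used strand, so values of such overlapping genes are uncertain. Atf5, a factor of the amino acid response, averaged 44.3 ± 6.88 CPM in Batf2-/- and 45.5 ± 3.18 CPM in WT, and 82 of its exon bases overlap Nup62 and Il4i1 on the opposite strand.

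Of the 7 tested ATF4 targets 0 rose, 0 fell and 7 did not pass, with a median log2 fold change of -0.09. The estimates of Phgdh, Psat1 and Ppp1r15a lay above 0 and those of Asns, Chac1, Sesn2 and Trib3 below. Phgdh had 307, 326, 386 and 451 CPM in Batf2-/- libraries, against 295, 283, 326 and 415 CPM in WT libraries. Library 4 of WT lay above 3 of the 4 Batf2-/- libraries, and the log2 fold change was 0.16 (interval -0.22 to 0.53, edgeR adjusted p = 1.00). Psat1, the next enzyme of serine synthesis, on chromosome 19 and 9.73 Mb from Batf2, had 97.1, 102, 121 and 164 CPM in Batf2-/- libraries, against 94.5, 99.0, 109 and 145 CPM in WT libraries (log2 fold change 0.11, interval -0.33 to 0.55). Asns, the asparagine synthetase that is a standard readout of the amino acid response, had 131, 109, 107 and 96.4 CPM in Batf2-/- libraries, against 142, 114, 117 and 114 CPM in WT libraries. Library 5 lay above 3 of the 4 WT libraries and the other 3 below all of them, at a log2 fold change of -0.14 (interval -0.43 to 0.15, edgeR adjusted p = 1.00).

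Chac1 had 5.58, 5.41, 5.60 and 4.53 CPM in Batf2-/- libraries, against 7.60, 4.04, 5.30 and 6.22 CPM in WT libraries, so the WT libraries spanned all 4 Batf2-/- libraries (log2 fold change -0.13, interval -0.55 to 0.29). Sesn2, a leucine sensor that restrains mTORC1, averaged 15.0 ± 2.65 CPM in Batf2-/- and 16.1 ± 3.48 CPM in WT. Trib3 averaged 11.6 ± 1.06 CPM in Batf2-/- and 12.3 ± 1.84 CPM in WT. Ppp1r15a, the phosphatase subunit that reverses eIF2 phosphorylation, had 55.2, 61.2, 57.2 and 49.7 CPM in Batf2-/- libraries, against 52.4, 55.4, 53.1 and 46.6 CPM in WT libraries (log2 fold change 0.11, interval -0.13 to 0.34). The 7 genes with an ER stress element had log2 fold changes of -0.11 to 0.06, and the 4 tested genes with a C/EBP-ATF element had -0.14 to 0.00.

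**Figure D3:**
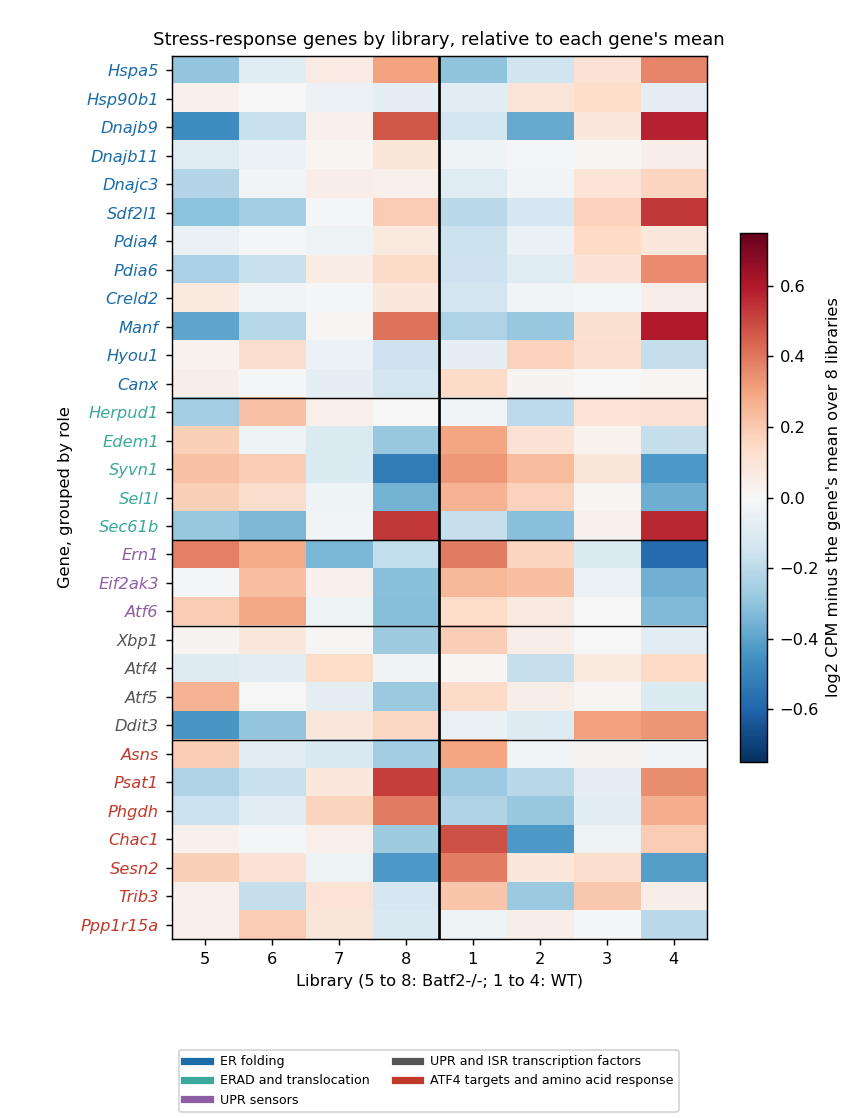
Log2 CPM of each tested gene minus its own mean over the 8 libraries, with Batf2-/- libraries 5 to 8 left of the black line and WT libraries 1 to 4 right of it, and genes grouped by role. Libraries 8 and 4 hold many of the strongest colours, red for Dnajb9, Manf, Sec61b and Psat1 and blue for Syvn1, Sel1l and Sesn2, on both sides of the line.

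The ratio of the highest to the lowest of the 8 libraries had a median of 1.51 over the 31 genes and of 1.70 over all tested genes. The fold change between genotypes had a median size of 1.05 over the 31 genes and of 1.08 over all tested genes. The first measure takes the extreme single libraries and is wider by construction than a fold change between groups, so their sizes cannot be compared. Library 8 among Batf2-/- libraries and library 4 among WT libraries, chosen for description after their values were seen, were both the highest for 11 of the 31 genes and both the lowest for 10, and 63.5% of all tested genes had one or the other. The 11 were Hspa5, Dnajb9, Dnajb11, Sdf2l1, Pdia6, Creld2, Manf, Sec61b, Ddit3, Psat1 and Phgdh. The 10 were Hyou1, Edem1, Syvn1, Sel1l, Eif2ak3, Atf6, Xbp1, Atf5, Sesn2 and Ppp1r15a. Thus 7 of the 12 ER folding genes were high in both libraries, with Hyou1 low in both. Of the degradation and import genes 3 of 5 were low in both, and of the sensors 2 of 3. Among all 11083 tested genes, 3456 were high in both and 3580 low in both, and whether the roles differ from that was not tested.

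Exon length differed between these sets. The 11 genes high in both libraries had a median exon length of 2549 bases (1108 to 4254), and the 10 genes low in both had 5442.5 bases (1993 to 9231). Over the 31 genes, Spearman's rho between exon length and the log2 level of library 8 against the rest of the Batf2-/- libraries was -0.43, and between length and library 4 against the rest of the WT libraries it was -0.56. Over all tested genes with a length, the same values were -0.33 and -0.43. The points share libraries and scaling, so these are descriptions, and the part that transcript length, RNA quality or cell state plays in them was not tested. With libraries 4 and 8 left out, a setting added once the data were known, 0 of 31 genes were called.

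**Figure D4:**
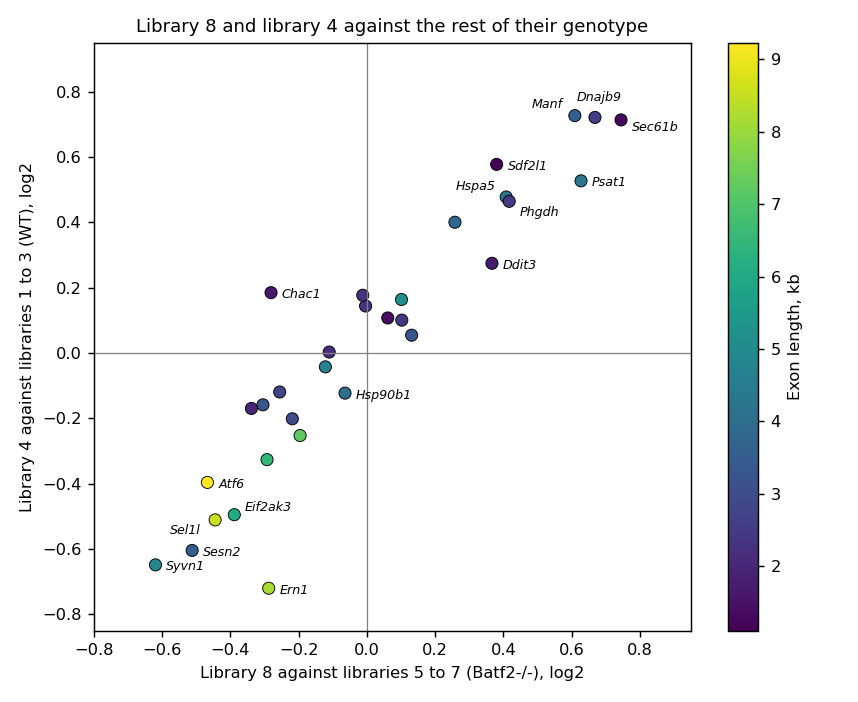
Log2 level of each tested gene in library 8 against the mean of libraries 5 to 7 (Batf2-/-, horizontal) and in library 4 against the mean of libraries 1 to 3 (WT, vertical), coloured by exon length in kb. Genes lie along a rising diagonal, with Sec61b, Dnajb9, Manf and Psat1 at its upper end and Syvn1, Sesn2, Sel1l and Atf6 at its lower end, and with Chac1 off it.

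The wider pathways were counted from 10 further lists of 151 genes, of which 143 were tested. Of these 0 rose, 1 fell and 142 did not pass (edgeR, adjusted p of 0.05), against 0.55% of all tested genes called higher and 0.559% called lower. An unadjusted p under 0.05 was found for 9 of the 143, against 8.5% of all tested genes. With libraries paired by table column 18 of the 143 passed, against 12.5% of all tested genes, and among those named in the text these were Jdp2, Slc7a11, Wfs1, Herpud2, Map3k5, Mbtps2, Ppp1r15b, Mthfd2, Aldh18a1 and Gars. The values that follow are without that pairing. The gene that fell was Jdp2, a bZIP repressor of AP-1 sites, listed with the ATF4 targets of stress and transport. It had 7.40, 6.65, 8.33 and 7.17 CPM in Batf2-/- libraries 5 to 8, against 16.7, 19.8, 17.0 and 16.7 CPM in WT libraries 1 to 4, with no overlap (log2 fold change -1.25 ± 0.12 SE, edgeR adjusted p = 0.00115). The other 17 tested genes of that list did not pass, and its median log2 fold change was 0.14. Vegfa, the angiogenic factor, was at 0.676 ± 0.189 CPM in Batf2-/- and 0.416 ± 0.0378 CPM in WT (edgeR adjusted p = 0.409).

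Among the other ER genes, 0 of 20 folding enzymes, 0 of 17 tested degradation genes and 0 of 18 import and signal peptide genes passed, with median log2 fold changes of -0.03, -0.09 and -0.07. Fkbp11, an ER prolyl isomerase, averaged 1.64 ± 0.344 CPM in Batf2-/- and 0.919 ± 0.384 CPM in WT (SD, n = 4 each; edgeR adjusted p = 0.348). Wfs1, the ER membrane protein wolframin, averaged 17.4 ± 4.51 CPM in Batf2-/- and 11.96 ± 3.16 CPM in WT (adjusted p = 0.587 by edgeR). Herpud2 averaged 50.6 ± 11.7 CPM in Batf2-/- and 60.7 ± 9.47 CPM in WT, and Srpr, which encodes a subunit of the signal recognition particle receptor, 159 ± 10.3 CPM in Batf2-/- and 182 ± 11.8 CPM in WT.

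Among sensors, kinases and initiation factors, 0 of 11 further sensor and protease genes and 0 of 13 genes of the eIF2 kinases, eIF2 and eIF2B passed. Map3k5, the kinase ASK1 downstream of IRE1, averaged 16.9 ± 3.22 CPM in Batf2-/- and 12.6 ± 2.61 CPM in WT (edgeR adjusted p = 0.572). Mbtps2, a protease that cuts ATF6, averaged 35.8 ± 1.78 CPM in Batf2-/- and 40.8 ± 0.702 CPM in WT, with groups that did not overlap and an edgeR adjusted p of 0.638. Ppp1r15b, the constitutive partner of Ppp1r15a, averaged 237 ± 35.1 CPM in Batf2-/- and 288 ± 41.9 CPM in WT (adjusted p = 0.745, edgeR). Eif2ak2, the double-stranded RNA kinase PKR, averaged 83.6 ± 4.22 CPM in Batf2-/- and 71.6 ± 9.64 CPM in WT.

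In metabolism and the neighbouring stress responses, 0 of 7 tested serine, proline and one-carbon enzymes, 0 of 20 cytosolic aminoacyl tRNA synthetases, 0 of 13 tested cytosolic heat shock genes and 0 of 6 mitochondrial unfolded protein response genes passed. Aldh18a1, an enzyme of proline synthesis, averaged 17.9 ± 2.56 CPM in Batf2-/- and 23.3 ± 3.65 CPM in WT (edgeR adjusted p = 0.459). Mthfd2, a mitochondrial folate enzyme, averaged 74.1 ± 7.31 CPM in Batf2-/- and 85.4 ± 5.20 CPM in WT. Gars, glycyl tRNA synthetase, averaged 230 ± 9.08 CPM in Batf2-/- and 264 ± 5.38 CPM in WT, with groups that did not overlap (edgeR adjusted p = 0.624). Hspa1a, an inducible cytosolic chaperone with the near-identical copy Hspa1b, averaged 2.22 ± 0.630 CPM in Batf2-/- and 1.19 ± 0.396 CPM in WT, also without overlap (edgeR adjusted p = 0.307). In all, 7 of the 143 genes had groups that did not overlap, Edem2 and Eif2b1 among them, against 6.33% of all tested genes.

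**Figure D5:**
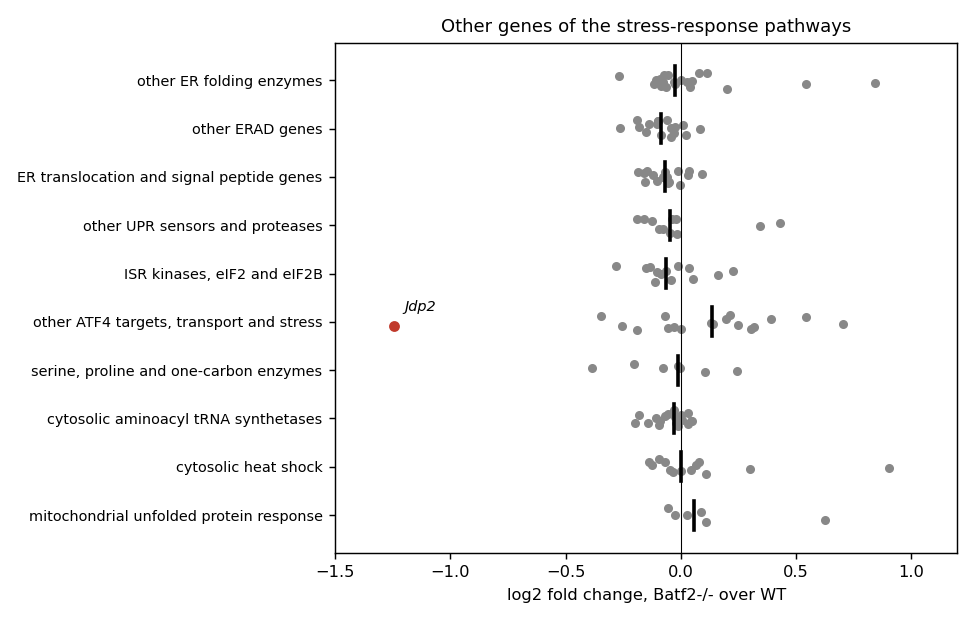
Log2 fold change of Batf2-/- over WT for the 143 tested genes of the 10 further lists, 1 row a list, with the list's median as a black bar and genes past an adjusted p of 0.05 in red. Jdp2 at -1.25 is the single red point, and list medians lie between -0.09 and 0.14.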

How the data were processed

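The 8 libraries came from a kit for stranded mRNA (per the labels' protocols), and the submitters' processing notes name the build GRCm38 (mm10). Aligner, counting tool and strand setting are not given in the sources used here. The authors deposited 1 table of raw total counts per gene (48709 genes), per the file headers. Its columns name the genotype but not the labelled replicate, so libraries are numbered by column. The 32 genes, the further lists and the tests were chosen with earlier results of these data known.

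Counts were tested with edgeR 4.0.16 (quasi-likelihood, robust, TMM scaling, genotype as the only term) after filterByExpr, which kept 11083 genes. P-values were adjusted by Benjamini-Hochberg over all of them at 0.05, and 95% intervals are unadjusted. CPM are TMM-scaled, summed marker levels are unscaled, and TPM use summed exon lengths of GENCODE on GRCm38. Libraries of one genotype are pools of mice, and each test compares 4 pools with 4. Alternatives were RLE scaling, library size only, DESeq2 1.42.0, limma-voom 3.58.1 with and without library weights, no filter, at least 1 CPM in 4 libraries, and leaving out each library. By rule the named genes were the 3 members of highest TPM, any member past 0.05 or without overlap and, per further list, called genes and the 2 of smallest p. The other members with values per library, some further genes, libraries 4 and 8, and Edem2 and Eif2b1 were chosen after their values were seen. A few genes of the lists are not reported here.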

Additional observations from a re-analysis of the deposited data

Results flagged for a closer look

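In 62 groups of 4 libraries (31 genes in 2 genotypes), 2 groups held a library far from the others by Dixon's criterion, where chance gives about 1 in 20. Canx was 641 CPM in WT library 1, against 581 to 588 CPM in the other WT libraries. Asns was 142 CPM in the same library, against 114 to 117 CPM in the other WT libraries.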

How the results depend on the processing

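The count of 0 called among the 31 genes held under RLE scaling, library size only, DESeq2, limma-voom with and without library weights, both other filters, each left-out library and without libraries 4 and 8, with a smallest adjusted p of 0.516 (Ddit3, library weights). Over all genes, 123 calls became 347 with DESeq2, 370 with library weights, 206 without libraries 4 and 8, and 43 to 142 when 1 library was left out (76 without library 1, 63 without library 2, 43 without library 3, 76 without library 5, 77 without library 6 and 59 without library 7). Of the further pathway genes, 2 were called with library weights in place of 1.

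No paired analysis was possible because the columns carry no replicate number of the labels, and the fit that follows pairs libraries by table position in place of it. Same-position libraries (1 and 5, 2 and 6, 3 and 7, 4 and 8) had deviations that correlated at 0.60, 0.50, 0.27 and 0.76, and each library correlated best with its own position, a hint from the data and not from the design. With position as a block, chosen after the data were seen, 1390 genes, 18 further pathway genes and 2 of the 31 were called (1 ER folding gene and 1 ATF4 target). These 2 were Sdf2l1, with a log2 fold change of -0.19 (edgeR adjusted p = 0.0464), and Phgdh, at 0.16 (edgeR adjusted p = 0.0448), and 9 of the 31 had an unadjusted p under 0.05, against 12.5% of all tested genes called and 26.5% with an unadjusted p under 0.05. Without the block the log2 fold changes were -0.20 for Sdf2l1 and 0.16 for Phgdh. Adjusted p over the other settings is at least 0.516, but none of them pairs libraries, so they do not test the block. These calls came only with a pairing that the labels do not give.

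Several estimates changed sign under another setting, none with a call. In the main fit, without a block and with all libraries, these estimates ran from -0.13 (Chac1) to 0.11 (Psat1). With library weights, Ern1 was -0.027, Eif2ak3 0.018, Atf4 0.0018 and Chac1 0.034. Herpud1 was -0.0064 with no filter and -7.9e-06 with the position block. Without libraries 4 and 8, Hspa5 was 0.013, Ern1 -0.015, Atf4 0.027 and Atf5 0.013. With 1 library left out, the log2 fold change ran from -0.27 to 0.16 for Dnajb9, -0.28 to 0.13 for Manf, -0.28 to 0.18 for Sec61b, -0.13 to 0.14 for Hspa5, -0.072 to 0.28 for Psat1, -0.080 to 0.20 for Ern1, -0.27 to 0.028 for Chac1, -0.23 to 0.021 for Syvn1, -0.21 to 0.021 for Sesn2, -0.18 to 0.020 for Pdia6, -0.14 to 0.056 for Sel1l, -0.14 to 0.041 for Atf5, -0.13 to 0.046 for Eif2ak3, -0.094 to 0.033 for Atf4, -0.076 to 0.013 for Hsp90b1, -0.073 to 0.083 for Herpud1, -0.069 to 0.048 for Pdia4, -0.073 to 0.031 for Hyou1, -0.047 to 0.022 for Dnajb11 and -0.020 to 0.17 for Atf6. The cause was not tested. With 4 pools per genotype the median standard error was 0.15 log2 over the 31 genes.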

Other observations

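Of the 143 further pathway genes counted above, 5 more are given here by their values. Slc7a11, the cystine transporter and a known ATF4 and NRF2 target, averaged 2211 ± 274 CPM in Batf2-/- and 1773 ± 232 CPM in WT (SD, n = 4 each; log2 fold change 0.32, edgeR adjusted p = 0.572), and it was picked for its level after its values were seen. Srprb, the membrane anchor of the signal recognition particle receptor, averaged 66.7 ± 4.69 CPM in Batf2-/- and 74.2 ± 3.98 CPM in WT. Mars, methionyl tRNA synthetase, averaged 61.2 ± 3.92 CPM in Batf2-/- and 65.4 ± 1.49 CPM in WT. Hspd1, the mitochondrial chaperonin, averaged 125 ± 15.2 CPM in Batf2-/- and 137 ± 16.1 CPM in WT. Afg3l2, a mitochondrial protease, averaged 28.6 ± 5.45 CPM in Batf2-/- and 26.5 ± 3.04 CPM in WT. By edgeR with no block, 0 of these 5 genes passed an adjusted p of 0.05, and with table position as a block Slc7a11 passed (log2 fold change 0.32, edgeR adjusted p = 0.0198).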
